A study of Mus musculus with 44 samples.

Results

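The 42 genes described here belong to cytochrome P450 families 1 to 3, the haem enzymes that carry out most of the oxidation of drugs, solvents and other foreign compounds. They were chosen by name from 18193 genes: every symbol that begins with Cyp1, Cyp2 or Cyp3 followed by a letter and a number, without a family 2 gene that the rule left out, and with 1 probe set per gene. The rule uses no measured value, except that a gene with several probe sets is represented by its brightest one over the 44 arrays. The genes were nonetheless chosen with earlier results of these data known. Probe sets that the annotation assigns to several genes, such as those shared by Cyp2a5 and Cyp2a4 or by Cyp3a41b and Cyp3a41a, fall outside the rule.

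Messenger RNA was measured on Affymetrix arrays in B6C3F1 mice, a hybrid laboratory strain. Mice had received either the glycol ether 2-butoxyethanol (2BE), an industrial solvent, or its vehicle. Liver was taken at 4 h from 3 vehicle and 4 2BE samples, and at 7 d from 4 vehicle and 5 2BE samples. Spleen was taken at 4 h (4 and 4 samples) and at 7 d (5 and 5), and bone marrow at 7 d (5 and 5). Samples of both arms were taken under ketamine and acepromazine anaesthesia. Groups here follow the sample titles, since the treatment field has reduced oxygen for 2BE and control for vehicle. No dose, route, sex or age is given. The labels do not say whether samples of a group came from different animals, so the p-values measure the spread between these samples only.

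Many genes of these families are switched on by receptors that sense foreign compounds. The constitutive androstane receptor (CAR, gene Nr1i3) is known for inducing Cyp2b10 in mouse liver, the pregnane X receptor (PXR, Nr1i2) for inducing Cyp3a11, and the aryl hydrocarbon receptor (AhR) for inducing Cyp1a1, Cyp1a2 and Cyp1b1. CAR and PXR bind as pairs with RXR to repeats of a hexamer, and AhR binds with Arnt to sites that hold the core GCGTG. Members of the Cyp2c, Cyp2d and Cyp2j subfamilies are abundant hepatic enzymes, many of them expressed without an inducer.

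The RefSeq promoters of the 3 genes that stand for these receptor types are shown because their responses to 2BE are compared below. Each is the 250 bases before the annotated start on build GRCm38.p6, written 5′ to 3′ on the gene's strand. Capitals mark every match on either strand to the AhR core GCGTG, to the TATA box TATAAA, and to repeats of the hexamer AGNTCA, direct with 1, 3 or 4 bases between the copies or everted with 6. The windows lie at chr7:25897408-25897657 on the plus strand for Cyp2b10, chr5:145879855-145880104 on the minus strand for Cyp3a11 and chr9:57697363-57697612 on the plus strand for Cyp1a1.
Cyp2b10: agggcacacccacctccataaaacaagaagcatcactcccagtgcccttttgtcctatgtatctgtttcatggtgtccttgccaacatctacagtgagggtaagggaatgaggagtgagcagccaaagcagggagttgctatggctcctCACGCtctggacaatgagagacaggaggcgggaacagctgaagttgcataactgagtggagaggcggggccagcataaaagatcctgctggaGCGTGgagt
Cyp3a11: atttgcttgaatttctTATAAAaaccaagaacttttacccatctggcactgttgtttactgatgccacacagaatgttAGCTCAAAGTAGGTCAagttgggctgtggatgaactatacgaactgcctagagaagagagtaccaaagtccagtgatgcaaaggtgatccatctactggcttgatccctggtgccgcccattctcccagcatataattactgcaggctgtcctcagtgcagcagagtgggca
Cyp1a1: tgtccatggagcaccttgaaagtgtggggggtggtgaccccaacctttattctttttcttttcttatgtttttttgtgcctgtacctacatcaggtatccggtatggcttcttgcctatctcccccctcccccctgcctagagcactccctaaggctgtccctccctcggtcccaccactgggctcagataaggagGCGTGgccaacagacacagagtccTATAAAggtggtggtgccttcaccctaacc

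The Cyp1a1 window held the AhR core 54 bases before the start and a TATA box 30 bases before it. The Cyp3a11 window held a direct repeat spaced by 4 bases 172 bases before the start, and the Cyp2b10 window held the AhR core at 9 and, on the other strand, at 101 bases. The AhR core was in 28.16% of the 32851 mouse windows of this length and in 7 of the 37 windows found for 34 of the 42 genes. The direct repeat spaced by 4 was in 0.1035% of all windows and in 1 of the 37, that of Cyp3a11. These matches describe the letters only, and the well-known CAR-responsive enhancer of Cyp2b10 lies farther upstream than the window reaches.

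In the liver at 4 h Cyp2b10 rose 7.07-fold, and it was the only one of the 42 genes to pass the test. Cyp2b10 encodes the CAR-inducible P450 of mouse liver. Its intensities were 167, 391 and 201 on the vehicle arrays (253 ± 121, SD, n = 3) and 2005, 1178, 3006 and 1105 on the 2BE arrays (1824 ± 888, SD, n = 4). Every 2BE array lay above every vehicle array, with a wide gap between 1105, the lowest 2BE value, and 391, the highest vehicle value. On the log2(intensity + 1) scale the difference was 2.82 ± 0.44 (SE; 95% interval 1.88 to 3.76; limma with Benjamini-Hochberg adjustment over all genes, adjusted p = 0.00194). Over all genes, 4.51% passed in this comparison and 3.24% passed with a higher value, so 1 of 42 (2.38%) is not a larger share than the background. An unadjusted p under 0.05 was found for 6 of the 42 genes (Cyp2b10, Cyp2u1, Cyp2d13, Cyp2d40, Cyp2d26 and Cyp2j5), against 17.7% of all genes.

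At 7 d the arms of Cyp2b10 still did not overlap, but the gene did not pass the test. The vehicle arrays read 297, 246, 415 and 115 (268 ± 124, SD, n = 4) and the 2BE arrays 547, 1251, 487, 911 and 552 (749 ± 327, SD, n = 5). The vehicle arrays thus spanned a wider range, on the log scale, than the 2BE arrays. The log2 difference was 1.52 ± 0.39 (95% interval 0.69 to 2.35), a 2.87-fold value, with an unadjusted p of 0.00128 and an adjusted p of 0.0885 by limma. At 7 d 0 of the 42 genes passed, against 0.748% of all genes (136 genes, a count that single arrays move to between 36, without the second vehicle array, and 250, without the first 2BE array), and 3 of the 42 had an unadjusted p under 0.05, against 11.4% of all genes. The 7 d difference minus the 4 h difference of Cyp2b10 was −1.30 ± 0.59 (adjusted p = 0.519), so the responses at the 2 times were not shown to differ. In that contrast 0 of the 42 genes passed by limma, against 0.269% of all genes, and 3 had an unadjusted p under 0.05 (Cyp2b10, Cyp2d40 and Cyp2j13), against 9.24%.

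Cyp2b10 is also read by a pair of probe sets whose suffix marks probes that match several transcripts, and these gave larger values. Probe set 1422257_s_at read 77.0, 276 and 127 on the vehicle arrays at 4 h and 1491, 965, 2443 and 813 on the 2BE arrays, a log2 difference of 3.21. Probe set 1425645_s_at read 88.0, 338 and 137 against 1717, 1105, 2600 and 996, likewise a difference of 3.21. At 7 d the same probe sets gave 1.95 and 1.85. On all 3 probe sets and at both times no 2BE array reached down to a vehicle array.

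**Figure D1:**
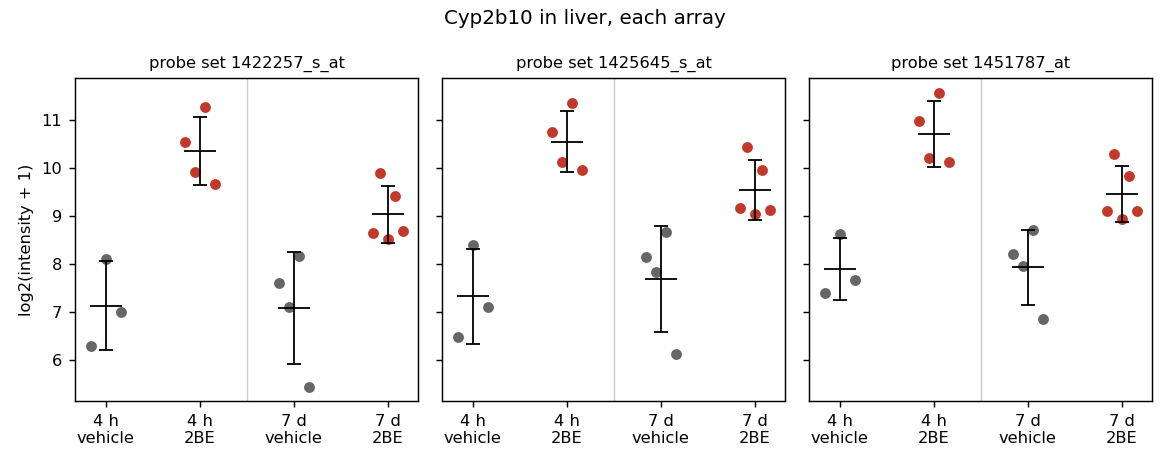
Intensity of Cyp2b10 in liver as log2(intensity + 1) on each array, for its 3 probe sets, in vehicle (grey) and 2BE (red) samples at 4 h and 7 d; horizontal bars are means and whiskers 1 SD. All 2BE points lie above all vehicle points of the same time on each probe set, and the 7 d vehicle points include 1 array well below the others.

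No other Cyp2b gene passed in liver. Cyp2b9 and Cyp2b13 are close relatives of Cyp2b10 that are known for higher expression in female liver, and Cyp2b19 is known from skin. Cyp2b9 read 15.8, 18.4 and 16.6 on the vehicle arrays at 4 h against 19.2, 18.9, 16.6 and 16.6 on the 2BE arrays (log2 difference 0.067 ± 0.41, adjusted p = 0.963). That SE draws on the spread of all 4 liver groups and is wider than these 4 h arrays alone would give. At 7 d Cyp2b9 read 43.5, 30.0, 156 and 23.7 against 26.3, 38.5, 25.4, 34.5 and 22.8 (−0.68 ± 0.36, adjusted p = 0.516), where the third vehicle array read highest and the arms overlapped. Cyp2b13 gave 0.14 ± 0.089 at 4 h and −0.046 ± 0.078 at 7 d, and Cyp2b19 gave 0.00083 ± 0.076 and −0.019 ± 0.067. These 3 genes were below the median of all probe sets of their set of arrays in both arms, so a low signal limits what they could show.

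Cyp3a11, the main PXR-inducible P450 of mouse liver, passed the test at neither time. At 4 h it read 26510, 28369 and 18621 on the vehicle arrays and 26414, 26863, 25419 and 23662 on the 2BE arrays. All 4 2BE values lay inside the vehicle range, and the third vehicle array was the lowest of the 7. The log2 difference was 0.085 ± 0.10 (95% interval −0.13 to 0.30, adjusted p = 0.753). At 7 d it read 27137, 28171, 27547 and 26900 against 27023, 27023, 26372, 26817 and 25749, a difference of −0.045 ± 0.090 (95% interval −0.24 to 0.15, adjusted p = 0.924). Each interval lies below that of Cyp2b10 at the same time, 1.88 to 3.76 at 4 h and 0.69 to 2.35 at 7 d.

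The other Cyp3a genes gave no call either. Cyp3a13 read 3117, 2126 and 4941 against 3227, 3385, 4406 and 3557 at 4 h (0.18 ± 0.20) and differed by 0.30 ± 0.17 at 7 d (adjusted p = 0.574). Cyp3a25 gave −0.21 ± 0.11 at 4 h (adjusted p = 0.335) and −0.18 ± 0.094 at 7 d (adjusted p = 0.516), with arms that overlapped at both times. Cyp3a44, known as a female-predominant gene, read 28.8, 28.3, 30.0 and 26.4 on the 7 d vehicle arrays and 26.4, 24.3, 23.8, 26.2 and 23.9 on the 2BE arrays. Its difference of −0.18 ± 0.061 had an unadjusted p of 0.00904 and an adjusted p of 0.216. Cyp3a16, known as a fetal form, gave −0.0011 ± 0.069 and 0.097 ± 0.060. The probe set shared by Cyp3a41b and Cyp3a41a gave −0.18 ± 0.098 and −0.15 ± 0.086.

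None of the 3 AhR-type genes passed in liver. Cyp1a1, the gene most often used as a readout of AhR activity, read 37.4, 37.4 and 32.8 on the vehicle arrays at 4 h and 42.3, 37.4, 37.4 and 37.4 on the 2BE arrays. Values of 5 of the 7 arrays were thus identical, and the log2 difference of 0.11 ± 0.083 (95% interval −0.069 to 0.28, adjusted p = 0.575) rests on the other 2 arrays. The arm means of Cyp1a1, 5.20 and 5.31 on the log2 scale, were below the set median of 5.42 at 4 h. At 7 d they were 5.73 and 5.80, just above the set median of 5.70, so a low signal limits what Cyp1a1 could show. At 7 d Cyp1a1 read 52.1, 52.3, 52.2 and 52.3 against 60.9, 52.3, 47.2, 54.3 and 60.3 (0.068 ± 0.073, 95% interval −0.086 to 0.22, adjusted p = 0.809). Such ties were common in liver, where 56.84% of probe sets at 4 h and 55.95% at 7 d had equal values on at least 2 arrays, against 2.169% to 3.224% in spleen and marrow. They touched 10 of the 42 genes at 4 h and 19 at 7 d, and their part in these results was not tested.

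Cyp1a2, an abundant liver enzyme that metabolises caffeine and that AhR also induces, has a bright probe set without the ties of Cyp1a1. It read 9384, 10704 and 5732 on the vehicle arrays at 4 h and 9281, 8398, 10758 and 8458 on the 2BE arrays, a log2 difference of 0.14 ± 0.16 (95% interval −0.19 to 0.48). At 7 d it read 10455, 12542, 12763 and 11326 against 10755, 12110, 11721, 13189 and 11322, a difference of 0.0071 ± 0.14 (95% interval −0.29 to 0.30). The third vehicle array at 4 h, lowest for Cyp3a11, was also lowest for Cyp1a2. Without it the 4 h difference was −0.13 for Cyp1a2 and −0.10 for Cyp3a11. Cyp1b1, which is expressed mainly outside hepatocytes, gave −0.098 ± 0.069 and 0.023 ± 0.061 in liver, below the set median in both arms.

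Whether single genes of the 3 receptor types responded by different amounts was tested on the difference between 2 genes within each array. Other genes of each type were not part of these tests. The 3 tests of Cyp2b10 at each time share its values, so they are not separate results. At 4 h the response of Cyp2b10 exceeded that of Cyp3a11 by 2.74 ± 0.47 (SE), that of Cyp1a1 by 2.72 ± 0.49 and that of Cyp1a2 by 2.68 ± 0.43 on the log2 scale. Each had p = 0.02857 by a two-sided exact permutation test, the smallest that the 35 splits of 7 arrays allow, and 0.04762 after Benjamini-Hochberg adjustment over the 10 tests made. That test treats the arrays as unpaired. Within the 3 same-numbered pairs of arrays the differences averaged 2.90 ± 0.62 (SE), 2.90 ± 0.66 and 2.84 ± 0.48. They were above 0 in 3 of 3 pairs, but the 8 sign patterns of 3 pairs allow no exact p under 0.25 (adjusted p = 0.3571). The paired test could thus not pass whatever the values, and the calls at 4 h rest on treating the arrays as unpaired. At 7 d the same 3 differences were 1.57 ± 0.46, 1.45 ± 0.48 and 1.51 ± 0.44, each with an exact permutation p of 0.007937, the smallest that 126 splits allow, and 0.02646 after adjustment. Without the fourth vehicle array, on which Cyp2b10 was lowest, they were 1.22, 1.09 and 1.17, with adjusted p from 0.0571 to 0.0595. Leaving out any 1 array at 4 h left too few splits to pass after adjustment (adjusted p from 0.111 to 0.167), with differences from 2.34 to 3.05.

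The PXR-type gene Cyp3a11 was not shown to differ from the AhR-type genes Cyp1a1 and Cyp1a2. Cyp3a11 minus Cyp1a1 was −0.021 ± 0.13 at 4 h (exact permutation p = 0.8857) and −0.11 ± 0.071 at 7 d (exact permutation p = 0.246). Cyp3a11 minus Cyp1a2 was −0.057 ± 0.12 at 4 h (exact permutation p = 0.6857) and −0.052 ± 0.075 at 7 d (exact permutation p = 0.4841). These small differences, each with its SE, are far from the values of 1.45 to 2.74 found for Cyp2b10. The genes started from unlike levels, however. On the vehicle arrays at 4 h the log2 means were 14.6 for Cyp3a11, 13.0 for Cyp1a2, 5.20 for Cyp1a1 and 7.89 for Cyp2b10. Whether a bright start limited the rise that Cyp3a11 and Cyp1a2 could show was not tested.

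**Figure D2:**
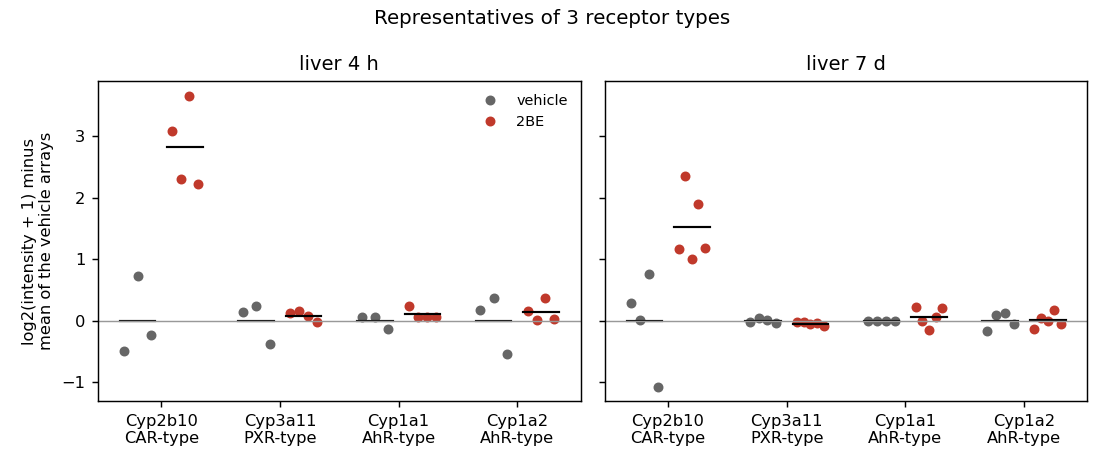
Log2(intensity + 1) of 4 genes on each liver array, minus the mean of the vehicle arrays of that time, for vehicle (grey) and 2BE (red) samples; black bars are arm means. At both times the 2BE points of Cyp2b10 stand above its vehicle points, with mean differences of 2.82 and 1.52, while the arms of Cyp3a11, Cyp1a1 and Cyp1a2 overlap.

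Most of the remaining family 2 genes stayed close to 0 in liver. Of the 41 genes that did not pass at 4 h, 32 differed by less than 0.2 on the log2 scale, as did 34 of the 42 at 7 d. The median over the 42 genes was −0.0037 at 4 h and −0.019 at 7 d, beside −0.017 and −0.0013 over all genes. The 11 Cyp2c genes ranged from −0.56 to 0.99 at 4 h and from −0.38 to 0.22 at 7 d, the 8 Cyp2d genes from −0.68 to 0.038 and from −0.20 to 0.14, and the 5 Cyp2j genes from −0.18 to 0.30 and from −0.11 to 0.061. In liver 29 of the 42 genes at 4 h and 31 at 7 d exceeded the set median in at least 1 arm. The bright probe set shared by Cyp2a5 and Cyp2a4 gave 0.22 ± 0.47 at 4 h and 0.19 ± 0.41 at 7 d, with wide spread between arrays of an arm.

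The widest value after Cyp2b10 was that of Cyp2c55, a P450 known to respond to CAR and PXR. At 4 h it read 195, 497 and 42.9 on the vehicle arrays and 523, 292, 300 and 236 on the 2BE arrays (0.99 ± 0.52, adjusted p = 0.335). The arms overlapped, and the vehicle arrays ranged more widely than the 2BE arrays. At 7 d its difference was 0.065 ± 0.45. Without the second vehicle array, the highest of the 3, Cyp2c55 passed at 1.80 (adjusted p = 0.0258). Likewise Cyp2j9 passed only without the first vehicle array (0.59, adjusted p = 0.0356).

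A few family 2 genes read lower in 2BE liver at 4 h without passing the test. Cyp2d13 read 571, 545 and 539 on the vehicle arrays and 527, 268, 398 and 246 on the 2BE arrays, with no overlap (−0.68 ± 0.20, adjusted p = 0.0647). Its other probe set, brighter in liver, read 1036, 1062 and 1040 against 942, 570, 754 and 511, and passed when it stood for the gene (−0.63, adjusted p = 0.0434). With adjustment over all probe sets it did not pass (limma adjusted p = 0.0508). Cyp2u1, a hydroxylase of long-chain fatty acids, read 172, 192 and 148 against 151, 101, 110 and 109 (−0.54 ± 0.15, adjusted p = 0.0524), and gave −0.36 ± 0.13 at 7 d (adjusted p = 0.266). Its other probe set gave a smaller value at 4 h, −0.12 ± 0.17 (adjusted p = 0.815 over all probe sets). With the probe sets first given, both genes passed after a further quantile normalization, Cyp2d13 at −0.73 and Cyp2u1 at −0.57, and both passed without the first 2BE array. The arms did not overlap for 3 of the 42 genes at 4 h (Cyp2b10 higher, Cyp2d13 and Cyp2j13 lower), against 11.1% of all genes, and for 1 of 42 at 7 d (Cyp2b10), against 5.33%.

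**Figure D3:**
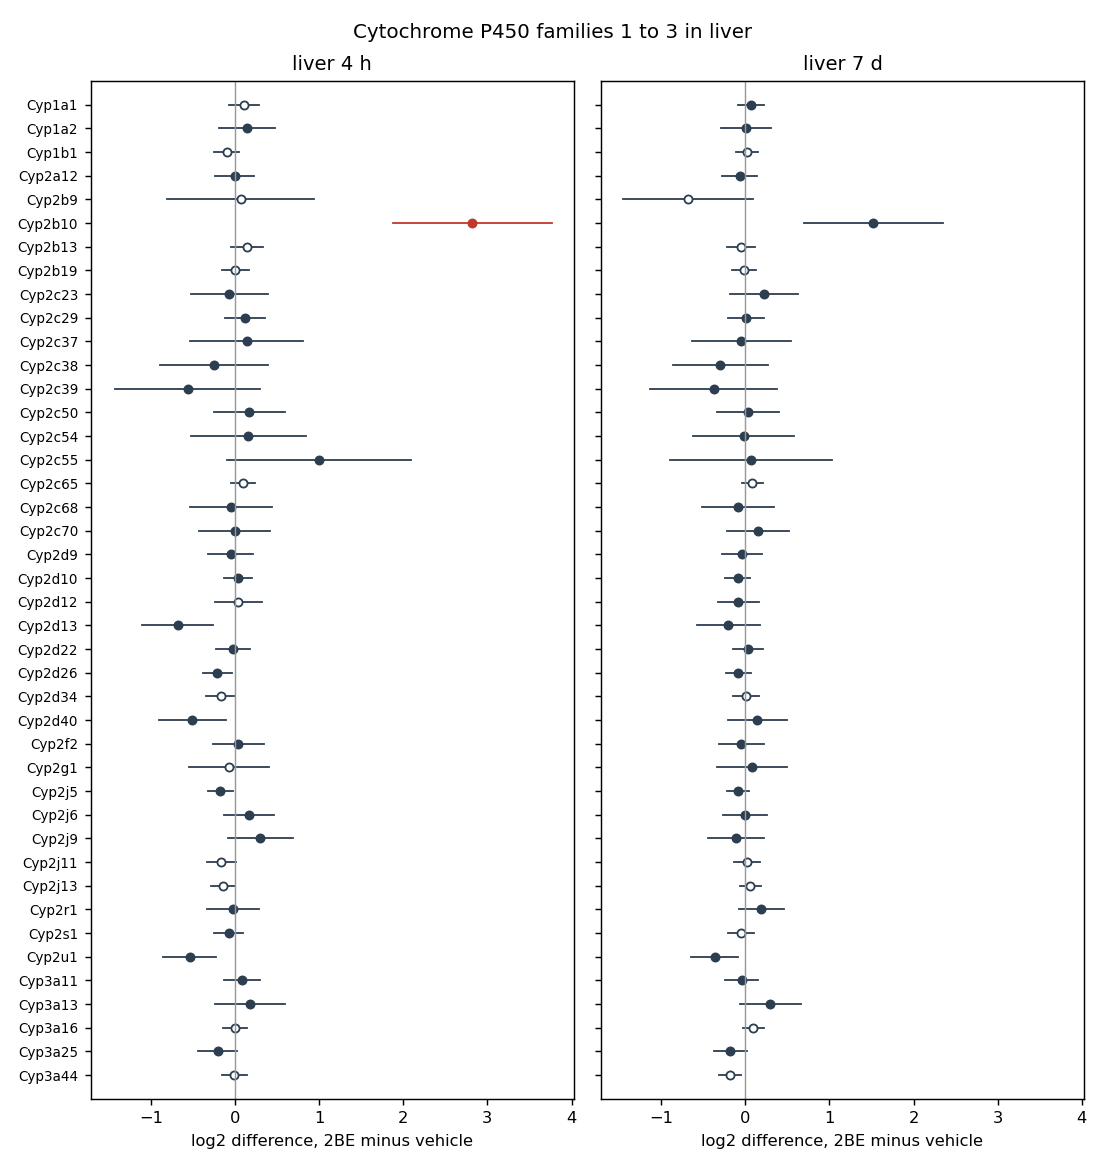
Log2 difference (2BE minus vehicle, points) with its 95% interval (lines) for each of the 42 genes in liver at 4 h (left) and 7 d (right); filled points exceed the set median in at least 1 arm and red marks a gene that passed the test. Cyp2b10 at 4 h is the only red point, and at 7 d it is the farthest to the right.

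The receptors' own messenger RNA did not pass the test in liver at either time. Nr1i3 (CAR) differed by −0.53 ± 0.22 at 4 h (adjusted p = 0.207) and −0.15 ± 0.19 at 7 d. Nr1i2 (PXR) read 423, 350 and 310 on the vehicle arrays at 4 h and 468, 432, 502 and 424 on the 2BE arrays (0.35 ± 0.10, adjusted p = 0.0753), with arms that did not overlap but nearly touched, and gave 0.28 ± 0.092 at 7 d (adjusted p = 0.198). Ahr read 721, 584 and 537 against 800, 1089, 900 and 905 (0.59 ± 0.17, adjusted p = 0.0639) and gave 0.37 ± 0.15 at 7 d (adjusted p = 0.341).

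Among their partners, Rxra, the shared partner of CAR and PXR, gave −0.11 ± 0.088 at 4 h and −0.018 ± 0.077 at 7 d. Arnt, the partner of AhR, gave 0.026 ± 0.080 and −0.11 ± 0.071, and Ahrr, the AhR repressor and itself an AhR target, gave −0.091 ± 0.073 and 0.089 ± 0.064. Hnf4a, a master regulator of hepatocyte genes, gave 0.21 ± 0.075 and −0.10 ± 0.066. Nr0b2, a repressor of other nuclear receptors, gave −0.071 ± 0.40 at 4 h and −1.27 ± 0.35 at 7 d (adjusted p = 0.117), where its arms did not overlap. Por, the reductase that passes electrons to P450s, had no probe set of its own and is not analysed here.

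In the whole list of receptors and partners, 16 of 19 genes were measured, of which 2 passed at 4 h and 1 at 7 d, beside 4.51% and 0.748% of all genes. At 4 h Ppargc1a, a coactivator of nuclear receptors including CAR and PXR, rose (1.91 ± 0.28, adjusted p = 0.00134) and Cebpa, a hepatocyte transcription factor, fell (−0.96 ± 0.16, adjusted p = 0.00245). Ppargc1a read 178, 87.6 and 176 against 492, 451, 505 and 705 at 4 h, and it rose again at 7 d (1.39 ± 0.25, adjusted p = 0.0142), when it was the only gene of the list to pass. The list's median was −0.081 at 4 h and −0.14 at 7 d.

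Of the other known targets of CAR and PXR, 18 of 23 were measured, and only Thrsp, a lipogenic gene, passed at each time (1 of 18, beside 4.51% of all genes at 4 h and 0.748% at 7 d). It rose by 2.64 ± 0.43 at 4 h (adjusted p = 0.00234) and by 1.84 ± 0.37 at 7 d (adjusted p = 0.0291), and the list's median was 0.13 at 4 h and 0.027 at 7 d. Thrsp is also known as a target of thyroid hormone. Of the other AhR targets, 7 of 10 were measured. At 4 h Tiparp rose (1.34 ± 0.31, adjusted p = 0.0212), as did the cell cycle inhibitor Cdkn1a (2.93 ± 0.45, adjusted p = 0.00158), and the cytokine signalling inhibitor Socs2 fell (−3.13 ± 0.48, adjusted p = 0.00163), so that 3 of 7 passed beside 4.51% of all genes. At 7 d 0 of the 7 passed, beside 0.748%. The list's median was −0.033 at 4 h, beside −0.017 over all genes, and 0.084 at 7 d, beside −0.0013. Tiparp read 148, 153 and 119 against 165, 446, 298 and 711, with the first 2BE array close to the vehicle arrays.

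P450 enzymes need haem and electron donors, and 15 of 17 genes of that list were measured. Hmox1, which degrades haem, rose at 4 h (3.24 ± 0.21, adjusted p = 9.12e-07), the only one of the 15 to pass at 4 h, and at 7 d 0 of the 15 passed. Alas1, the first enzyme of haem synthesis and a CAR target, gave −0.25 ± 0.50 at 4 h and 1.56 ± 0.44 at 7 d (adjusted p = 0.126). Its 7 d arrays read 1436, 1058, 2078 and 752 in the vehicle arm and 1245, 7919, 2966, 3207 and 6905 in the 2BE arm, with the first 2BE array inside the vehicle range. Among 29 genes of P450 families 4 and higher, 0 passed at 4 h and only Cyp4a14, a fatty acid hydroxylase, passed at 7 d (3.79 ± 0.72, adjusted p = 0.0213), while the median of those genes was 0.0028. The shares of all genes were again 4.51% at 4 h and 0.748% at 7 d.

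The genes whose liver values ran most like those of 3 representatives were named as a description, by the mean of the Pearson correlations over the 7 arrays at 4 h and the 9 at 7 d, among 11130 genes above the set medians. For Cyp2b10 they were Slc25a22 (mean r 0.904), Fbrsl1 (0.903) and Mfsd2a (0.901). For Cyp3a11 they were Mme (0.934), Hibadh (0.903) and Hsd11b1 (0.897), and for Cyp1a1, with its tied values, Las1l (0.868), Nt5dc2 (0.867) and Ppp5c (0.856). The arrays of a set share tissue, time and normalization, and they span both arms.

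Outside the liver few of these genes ranked above the median of their set. Only 3 of the 42 exceeded the set median in the spleen at 4 h, 4 in the spleen at 7 d and 5 in the marrow. These medians were 6.48, 6.80 and 6.47 on the log2 scale, against 5.42 and 5.70 in liver at 4 h and 7 d. The counts thus give ranks within a set and do not compare signal with liver on 1 scale. Of the hepatocyte markers, 8 of 8 lay above the median in liver, with summed intensities of 206610 to 216574 (vehicle) and 217681 to 230454 (2BE) at 4 h, but 1 of 8 did in spleen and 2 of 8 in marrow. In the spleen at 4 h 0 of the 42 genes passed by limma, against 5.16% of all genes, and 1 had an unadjusted p under 0.05 (Cyp2d22, 0.26 ± 0.12), against 18.3%.

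In the spleen at 7 d Cyp1b1, the family 1 gene of vascular and stromal cells, fell 1.88-fold. Its vehicle arrays read 1576, 1235, 1556, 1443 and 1392 and its 2BE arrays 561, 695, 771, 767 and 1131, with no overlap (−0.91 ± 0.17, limma adjusted p = 0.000127). Of its other probe sets, 1416613_at was also lower (−0.82 ± 0.17), while the dim 1432081_at was higher (0.33 ± 0.095). At 4 h Cyp1b1 read 1271, 1365, 937 and 1845 against 1415, 1667, 1198 and 1475, with overlapping arms (0.12 ± 0.19, adjusted p = 0.789), and in marrow at 7 d it gave −0.12 ± 0.091 (adjusted p = 0.403).

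Markers of whole cell types moved in the same spleens at 7 d, where 32.4% of all genes passed with a higher and 32.0% with a lower value. Of the stellate cell and fibroblast markers 4 of 5 fell, with summed intensities of 3003 to 5166 on vehicle and 1603 to 2395 on 2BE arrays. Of the endothelial markers 4 of 5 fell (4364 to 5582 against 2234 to 2848), B cell markers fell in 4 of 4 (23676 to 27658 against 4513 to 11870) and erythroid markers rose in 4 of 4 (6236 to 15788 against 35377 to 44410). T cell markers fell in 3 of 3, adipocyte markers in 2 of 3 and macrophage markers in 4 of 8, with 1 higher. Pancreatic acinar markers rose in 2 of 3, and 0 neutrophil or cholangiocyte markers passed. Of the 8 hepatocyte markers, of which 1 lay above the set median, 4 rose and 1 fell. Fewer cells of a type and less RNA per cell cannot be told apart in such bulk samples, and the part of these shifts in the fall of Cyp1b1 was not tested.

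Counted over the family, 24 of the 42 genes (57.1%) passed in the spleen at 7 d, against 64.4% of all genes. Of the 42, 21 passed with a higher value (32.4% of all genes did) and 3 with a lower one (32.0%). Of these 24, 21 stayed below the set median in both arms, and the other 3 were Cyp1b1, Cyp2b10 and Cyp2d13. The count was 3 when genes below the median in both arms were left out, and Cyp2b10 and Cyp2d13 exceeded it only in the 2BE arm, where they were higher. It was 11 after a further quantile normalization, and leaving out single arrays gave 13 to 25. The median over the 42 genes was 0.19, beside 0.051 over all genes.

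Of the other genes named in the spleen at 7 d, Cyp2b10 and Cyp2d13 have further probe sets, and these did not give the same result. Cyp2b10 read 91.3, 101, 95.8, 109 and 108 on vehicle and 156, 170, 135, 147 and 123.2 on 2BE arrays (0.52 ± 0.082, adjusted p = 2.3e-05), but its other probe sets gave 0.040 and −0.0091 and did not pass. Cyp2d13 gave 0.38 ± 0.10, against −0.10 on its other probe set. Cyp2c68 read 61.4, 63.7, 59.3, 60.2 and 62.3 against 79.0, 95.8, 87.4, 105 and 63.9 (0.47 ± 0.10), and Cyp2c39 gave 0.40 ± 0.097. Cyp2r1, a vitamin D 25-hydroxylase, was lower (−0.38 ± 0.092, adjusted p = 0.00153).

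In the marrow 2 of the 42 genes passed (4.76%), against 20.1% of all genes, both below the set median. Cyp2d34 read 16.4, 17.7, 17.8, 19.9 and 17.7 on vehicle and 20.1, 21.4, 19.7, 19.5 and 23.2 on 2BE arrays (0.20 ± 0.063, adjusted p = 0.0352). Cyp2j9 read 30.4, 39.2, 37.0, 36.2 and 31.3 against 31.2, 29.2, 28.8, 29.3 and 30.9 (−0.21 ± 0.070, adjusted p = 0.0481). Both pairs of arms overlapped, and with the low-value filter, a pseudocount of 16 or the replicate number as a block 0 of the 42 passed.

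**Figure D4:**
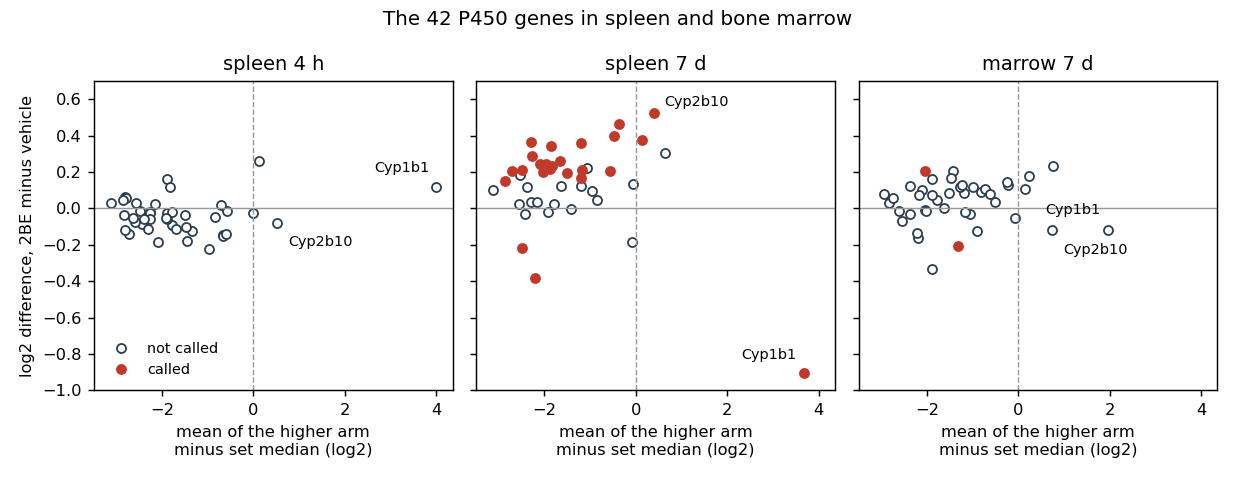
Log2 difference (2BE minus vehicle, vertical axis) of the 42 genes in the spleen at 4 h, the spleen at 7 d and the marrow at 7 d, against the mean of the higher arm minus the median of all probe sets of that set (log2, horizontal axis); red points passed the test. Most red points at 7 d in the spleen lie left of the dashed line, below the set median, and Cyp1b1, at −0.91, stands apart at the lower right.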

How the data were processed

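The authors deposited 1 table of intensity per probe set on a linear scale (6.16 to 47798), made with RMA per the submitters' processing notes, which name no version. RMA corrects background, normalizes arrays by quantiles and summarises probes, so a common shift of all genes would be removed. The arrays form 5 sets by tissue and time, and array medians differed between most of them. Those of the spleen at 4 h (87.0 to 89.2) lay within those of the marrow (86.2 to 89.6). Levels were compared only within a set, and precision is set by how few arrays a group holds.

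The table has 45101 probe sets. Without 64 controls, 34945 had 1 symbol, 932 several and 9160 none in the platform annotation. Gene IDs of 34741 were found in RefSeq's genes for GRCm38.p6, with 0 changes of symbol. Every gene of the 18193 took its probe set with the highest mean of log2(intensity + 1). Fold changes are on that scale and understate the change of low genes.

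Group means were fitted per tissue with limma 3.58.1 in R 4.3.3 (lmFit, eBayes), over the 4 liver groups, the 4 spleen groups or the 2 marrow groups. Tests were two-sided, with Benjamini-Hochberg adjustment over 18193 genes, and a gene passed at an adjusted p under 0.05. SE and 95% intervals are limma's. The fit was tested on simulated data. Differences between genes within an array were tested by exact permutation over arrays.

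The genes, the lists and the rule for naming genes were chosen with earlier results of these data known. The rule gave values per array for fixed representatives, for genes that passed in liver and for up to 6 that passed elsewhere. For some of these only the difference is printed here. Cyp2c55, Cyp2d13, Cyp2u1 and Cyp2j9 in liver were added after their values were seen. Values per array are also printed for Nr1i2, Ahr, Ppargc1a, Tiparp and Alas1, which that rule does not cover. Alternatives were the pseudocount (0 or 16), a low-value filter, a further quantile normalization, the mean of a gene's probe sets, fits on 2 groups only, eBayes with trend and robust, the replicate number as a block and leaving out each array. Choosing probe sets by the unlogged mean, the other Cyp2b10 probe sets and the paired test of differences between genes were added after seeing the data. Same-numbered arrays of the 2 arms deviated together in the liver at 4 h (correlations of 0.132, 0.282 and 0.146). Such correlations ranged from −0.162 to 0.085 in the liver at 7 d and from −0.088 to 0.164 in the marrow. In the spleen they ranged from −0.157 to 0.238 at 7 d and from −0.381 to 0.543 at 4 h. They thus do not settle whether the numbers mark pairs in any set. The paired test of differences between genes was made only in the liver at 4 h.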

Additional observations from a re-analysis of the deposited data

Results flagged for a closer look

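Of 52 groups of 4 or 5 arrays checked for the genes named, 5 had an array set apart relative to the range of its group. A small gap can be flagged in this way where the other values are tied or nearly equal. Chance alone gives about 1 in 20, but that rate does not allow for ties. All 5 groups were in liver, where many values are tied, and all values are log2(intensity + 1). Among the 2BE arrays at 4 h, the first read 5.44 for Cyp1a1 where the other 3 were tied at 5.26. There the second read 4.38 for Cyp2b13, with the others tied at 4.36, and 3.75 for Cyp2b19, with the next at 3.46. Among the vehicle arrays at 7 d, the third read 3.80 for Cyp2b19, with the next at 3.77, and 10.81 for Cyp3a13, with the next at 10.97.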

How the results depend on the processing

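The rise of Cyp2b10 in the liver at 4 h passed under all alternatives, at 2.54 to 3.21, and its 7 d value passed under none (1.16 to 1.95, adjusted p from 0.0711 to 0.24). With the replicate number as a block, Cyp2b10 gave 3.02 at 4 h (adjusted p = 0.0227) and 1 of the 42 genes passed there. The count at 4 h was 2 with the low-value filter (Cyp2u1 added), 3 after a further quantile normalization (Cyp2d13 and Cyp2u1), 2 with probe sets by unlogged mean (Cyp2d13), and 1 to 3 without single arrays. At 7 d it stayed 0. In the spleen at 7 d 24 genes became 3 with the filter and 11 after quantile normalization (13 to 25 without single arrays). In the marrow 2 became 0 with the filter, the block or a pseudocount of 16, 1 with trend and robust, and 0 to 4 without single arrays. The cause of these moves was not tested, beyond the filter testing 29, 4 and 5 of the genes. The differences between Cyp2b10 and Cyp3a11, Cyp1a1 and Cyp1a2 ranged from 2.42 to 2.98, 2.42 to 3.05 and 2.34 to 2.86 at 4 h, and from 1.22 to 1.82, 1.09 to 1.71 and 1.17 to 1.73 at 7 d, without single arrays. With the replicate number as a block (same-numbered pairs, chosen after seeing the data) they were 2.90, 2.90 and 2.84 at 4 h and did not pass, since 3 pairs cannot. Cyp3a11 minus Cyp1a1 at 4 h turned sign with the block (0.0016) and with a pseudocount of 16 (0.0088) and ranged from −0.14 to 0.065 without single arrays, and Cyp3a11 minus Cyp1a2 turned after quantile normalization (0.0050; −0.12 to 0.026).

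Of values near 0 that did not pass, these turned sign: at 4 h Cyp3a16 with the block (0.00084), Cyp3a44 with the block (0.042) and after quantile normalization (0.015), and Cyp1b1 as the mean of its probe sets (0.039), and at 7 d Cyp1a2 after quantile normalization (−0.0048). Cyp2d13 in the spleen at 7 d turned with the unlogged-mean probe set (−0.10) and Cyp2b10 there with probe set 1425645_s_at (−0.0091). Without single arrays at 4 h, Cyp2b13 ranged from −0.00054 to 0.21, Cyp2b19 from −0.079 to 0.035, Cyp3a16 from −0.020 to 0.014, Cyp3a44 from −0.054 to 0.042, Cyp3a13 from −0.12 to 0.49, Cyp1a2 from −0.13 to 0.32 and Cyp3a11 from −0.10 to 0.20. At 7 d Cyp1a2 ranged from −0.048 to 0.048, Cyp1b1 from −0.0060 to 0.038 and Cyp2b19 from −0.039 to 0.0072. Dim probe sets limit what Cyp1a1, Cyp1b1, Cyp2b9, Cyp2b13, Cyp2b19, Cyp3a16 and Cyp3a44 could show in liver.

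Counts over all genes moved by over 1.5 times with only the 2 groups fitted (176 against 821 at 4 h, 244 against 136 at 7 d in liver, and 508 against 938 in the spleen at 4 h), with the block at 4 h in liver (471), and without single arrays in liver (466 to 1090 at 4 h, 36 to 250 at 7 d, and 4 to 111 against 49 for the time difference).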
